A study of Mus musculus with 426 samples.

Results

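Interferon-stimulated genes were read in single cells of a mouse pancreatic tumour as a set of 9 genes chosen by symbol: Isg15, Ifit1, Ifit3, Oasl2, Ifitm3, Bst2, Gbp2, Irf7 and Irf1. All 9 were present among the 24424 genes of the RNA table. Cells came from 3 male C57Bl/6 mice in which 50000 KPC1199-EGFP cells, a mouse pancreatic cancer line marked with green fluorescent protein (GFP), had been placed in matrigel in the pancreas at 6 to 8 weeks of age, and the tumours had grown for a further 6 to 8 weeks. Dissociated live cells were sorted singly and their messenger RNA and genome were amplified in 1 tube (GTO sequencing). From the primary tumour of each mouse there were cells sorted on CD45, a surface protein of leukocytes (56 kept cells: 22, 20 and 14 in mice 1, 2 and 3), on the epithelial surface protein EpCAM (25: 11, 8 and 6) and on GFP and EpCAM together (31: 12, 10 and 9). GFP+ cells came from peritoneal metastases of all 3 mice (85: 39, 24 and 22), from metastases in kidney (44: 23 and 21), liver (16: 8 and 8) and spleen (35: 18 and 17) of mice 2 and 3, and from the primary tumour (76: 31, 18 and 27). Every mouse carried the same injected line and none was tumour-free or given interferon, so the levels below are those of untreated tumours, and GFP marks descent from the injected line rather than a cell type.

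Interferons are secreted proteins that bind receptors on nearly all cells and, through Jak kinases and Stat transcription factors, switch on a shared set of genes. Type I interferons act mainly through the interferon-stimulated response element in the promoters of their target genes, and interferon-gamma acts mainly through gamma-activated sites. In tumours the response is known both from immune cells and from cancer cells themselves. Within the set, Isg15 is a ubiquitin-like protein that is attached to other proteins, Ifit1 and Ifit3 are partners that bind viral RNA, and Oasl2 belongs to the oligoadenylate synthetase family of double-stranded RNA sensors. Ifitm3 sits in endosomal membranes and hinders fusion of viruses, Bst2 (tetherin) holds budding virions at the cell surface, and Gbp2 is a guanylate-binding GTPase induced strongly by interferon-gamma. Irf7 and Irf1 are transcription factors: Irf7 drives the genes of type I interferons, and Irf1 is an early target of interferon-gamma that in turn activates further genes.

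The starts of these genes show which of the 2 binding patterns each carries. RefSeq promoter windows of GRCm38.p6, 250 bases before to 50 bases after the start, were matched for 9 of 9 genes by symbol, with 2 windows for Irf1. They were searched on both strands for GAAA, any 2 bases and GAAA, the core of the response element (TTTC, any 2 bases and TTTC on the opposite strand), and for TTCNNNGAA, the gamma-activated pattern, which reads the same on both strands; overlapping matches were counted, and a match of one pattern may overlap the other. The paired GAAA was found in 6 of the 9 genes (Isg15, Ifit1, Ifit3, Ifitm3, Bst2 and Gbp2) and in 3.99% of 27025 genes with a window, and TTCNNNGAA in 3 (Ifitm3, Bst2 and Irf1) and in 9.55% of genes. The windows of Oasl2 and Irf7 held neither run of letters. The following 5 windows are shown because they span the arrangements found: a run of 3 overlapping matches in Isg15, 2 separate matches in Ifit1, both patterns just after the start in Ifitm3, 1 match in Gbp2, and the gamma-activated pattern alone in Irf1. Capitals mark the matches, and each is given 5′ to 3′ on the strand of the gene.
Isg15, chr4:156200769-156201068, minus strand: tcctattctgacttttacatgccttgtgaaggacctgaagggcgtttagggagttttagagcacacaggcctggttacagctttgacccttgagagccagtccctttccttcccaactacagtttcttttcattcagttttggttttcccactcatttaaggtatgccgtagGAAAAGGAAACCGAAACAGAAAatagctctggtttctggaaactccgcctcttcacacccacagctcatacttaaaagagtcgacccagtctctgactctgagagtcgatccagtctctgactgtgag
Ifit1, chr19:34640639-34640938, plus strand: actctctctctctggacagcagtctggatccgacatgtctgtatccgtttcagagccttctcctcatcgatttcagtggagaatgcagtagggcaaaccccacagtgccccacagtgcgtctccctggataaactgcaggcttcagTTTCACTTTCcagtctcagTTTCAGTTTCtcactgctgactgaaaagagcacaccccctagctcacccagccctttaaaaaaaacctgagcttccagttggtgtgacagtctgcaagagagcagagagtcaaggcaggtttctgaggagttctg
Ifitm3, chr7:141010695-141010994, minus strand: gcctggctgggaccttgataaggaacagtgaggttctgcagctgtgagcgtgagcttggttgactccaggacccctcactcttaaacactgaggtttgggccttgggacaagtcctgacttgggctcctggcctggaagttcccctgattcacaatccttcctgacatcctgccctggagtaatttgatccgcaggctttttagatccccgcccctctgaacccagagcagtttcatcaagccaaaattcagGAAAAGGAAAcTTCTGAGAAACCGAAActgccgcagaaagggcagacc
Gbp2, chr3:142620413-142620712, plus strand: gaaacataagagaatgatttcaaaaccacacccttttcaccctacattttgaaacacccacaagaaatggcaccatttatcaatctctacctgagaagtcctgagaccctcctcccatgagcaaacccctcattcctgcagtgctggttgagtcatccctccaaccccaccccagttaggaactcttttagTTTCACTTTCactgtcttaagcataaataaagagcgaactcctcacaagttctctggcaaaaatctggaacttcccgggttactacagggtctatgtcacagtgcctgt
Irf1, chr11:53769764-53770063, plus strand: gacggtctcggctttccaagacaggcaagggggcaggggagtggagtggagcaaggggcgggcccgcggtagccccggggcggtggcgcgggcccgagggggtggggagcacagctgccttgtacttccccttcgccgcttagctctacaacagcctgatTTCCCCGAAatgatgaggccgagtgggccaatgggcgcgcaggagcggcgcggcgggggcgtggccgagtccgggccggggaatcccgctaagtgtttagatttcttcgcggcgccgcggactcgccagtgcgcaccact
Counted from the start of the gene, the matches begin at -78, -72 and -66 in Isg15, at -104 and -85 in Ifit1, at 2 and 19 (response element) and 13 (gamma-activated) in Ifitm3, at -59 in Gbp2 and at -90 in Irf1. A match describes letters only, and no binding was measured.

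Of 426 libraries, 420 were single cells and 6 bulk. In peritoneum of mouse 1, 2 pairs of libraries had DNA counts that differed by less than sampling noise, though their RNA counts differed by more, and each pair was averaged and counted as 1 cell. Of the 418 cells left, 368 with at least 500 genes and 10000 counts were kept, with 10805 to 17845616 counts each and a median of 1016776. Levels are counts per 1000000 (CPM) of a cell's RNA counts. They are not scaled by gene length, so levels are compared between cells of 1 gene and not between genes. The CD45 gene Ptprc averaged 215 ± 64.7 CPM in CD45+ cells (SD, n = 3 mice) and between 1.34 and 17.4 CPM in the other 7 groups. Epcam averaged 793 ± 532 CPM in EpCAM+ cells and 737 ± 197 CPM in GFP+EpCAM+ cells, against 59 ± 32.1 CPM in GFP+ cells of the primary tumour (SD, n = 3 mice each). Reads of genes that these tissues should not use were also present. The 1107 olfactory receptor genes, receptors of the nasal epithelium, reached 10 CPM in 4.12% of gene and cell pairs, with a median of 3.80% of cells per gene and a highest value of 13.9%. Their summed level was above 500 CPM in all but 205 of the 368 cells, with group medians between 66.7 CPM in spleen and 2118 CPM in liver. Shares of cells are therefore given at 10 or 100 CPM, and again for the 205 cells under 500 CPM of olfactory receptor reads where this matters.

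Ifitm3 was present in nearly every cell and in every group. A read was found in 364 of 368 cells, at least 10 CPM in 323 and at least 100 CPM in 279. Its mean was 731 ± 120 CPM in GFP+EpCAM+ cells of the primary tumour, against 3171 ± 101 CPM in GFP+ cells of the same tumours (SD, n = 3 mice each). The order of the 8 groups by mean level was peritoneum (6602 ± 2769 CPM), CD45+ (3835 ± 4483), kidney (3776 ± 397), GFP+ primary (3171 ± 101), spleen (3089 ± 198), EpCAM+ (2538 ± 2701), liver (1353 ± 399) and GFP+EpCAM+ (731 ± 120), with n = 3 mice for peritoneum and the 4 primary sorts and n = 2 for kidney, liver and spleen. Of the 7 neighbouring pairs in this order 5 overlapped between mice. The other 2, kidney over GFP+ primary and liver over GFP+EpCAM+, did not overlap and were apart by more than the larger SD. In the summed counts both pairs overlapped. Sums were 3598 to 4948 CPM in kidney against 2607 to 4035 CPM in GFP+ primary cells (log2 difference 0.24, SE 0.88, edgeR unadjusted p = 0.782). They were 164 and 1559 CPM in liver and 824 to 1430 CPM in GFP+EpCAM+ cells.

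**Figure D1:**
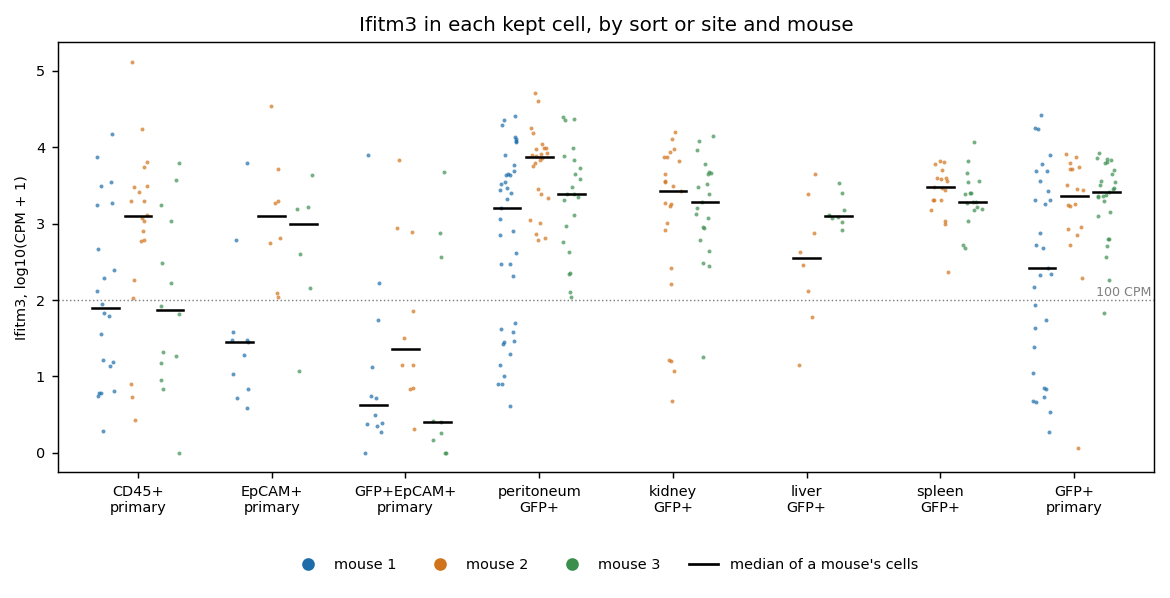
Ifitm3 in each of the 368 kept cells, as log10(CPM + 1), by group and mouse. Points are cells, bars are the median of a mouse's cells and the dotted line marks 100 CPM. In GFP+EpCAM+ cells the medians of the 3 mice are at 3.20, 21.9 and 1.56 CPM, below those of all other groups in the same mouse.

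Ifitm3 was low in most GFP+EpCAM+ cells. Their median cell had 3.20, 21.9 and 1.56 CPM in mice 1, 2 and 3, against 263, 2305 and 2589 CPM in GFP+ cells of the primary tumour. Ifitm3 reached 100 CPM in 2 of 12, 3 of 10 and 3 of 9 GFP+EpCAM+ cells, against 19 of 31, 17 of 18 and 26 of 27 GFP+ cells. The share was thus 26.7 ± 8.82% in GFP+EpCAM+ cells and 84 ± 19.7% among GFP+ cells over 3 mice each (SD), lower in 3 of 3 mice with no overlap between the groups. A two-sided exact permutation test over mice gave p = 0.1, the smallest value that 3 mice against 3 allow. The mean of 731 CPM rests on few cells, since the highest cell gave 96.9%, 79.2% and 80.6% of the mouse mean.

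The call of this difference depended on the fit. On the mean logs of cells (limma on the mouse means of log2(CPM + 1)), Ifitm3 was lower in GFP+EpCAM+ than in GFP+ cells. The log2 difference was -5.49 (SE 0.97, limma, Benjamini-Hochberg adjusted p = 0.000444 over 19703 genes, of which 0.299% passed). Leaving out mouse 1 or mouse 2 kept the call, with adjusted p of 0.00638 and 0.0124, and leaving out mouse 3 gave a log2 difference of -4.65 with adjusted p = 0.157. In the counts summed per mouse, the sums were 1147 ± 305 CPM in GFP+EpCAM+ cells and 3322 ± 714 CPM for GFP+ cells over 3 mice each (SD). There the log2 difference was -1.19 (SE 0.78) and did not pass (edgeR quasi-likelihood test, adjusted p = 0.746). The limma and edgeR fits differ in the weighting of cells, in scale and in test, and the part of each was not tested. Equal weighting without logs gave GFP+EpCAM+ means of 676, 869 and 649 CPM by mouse. The matching GFP+ means were 3246, 3056 and 3212 CPM. The share stayed lower in GFP+EpCAM+ cells at equal depth and among cells with few background reads. With both groups thinned to 50000 counts a cell, leaving out 2 GFP+EpCAM+ and 10 GFP+ cells, a read of Ifitm3 was found in 44.8% of 29 GFP+EpCAM+ cells and 89.4% of 66 GFP+ cells, against 89.7% and 100.0% unthinned. Among cells with under 500 CPM of olfactory receptor reads, 6 of 25 GFP+EpCAM+ cells and 46 of 54 GFP+ cells reached 100 CPM.

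Other genes moved with Ifitm3 in these cells. The summed level of 8 fibroblast markers, collagens and matrix proteins among them, was 7.07 to 3005 CPM by mouse in GFP+EpCAM+ cells and 4693 to 15046 CPM in GFP+ cells, and all 8 were detected in both groups. The 10 epithelial markers summed to 14551 to 15489 CPM in GFP+EpCAM+ cells and 1037 to 7682 CPM in GFP+ cells. Over the cells of a group, which come from the same few mice, Spearman's rho of Ifitm3 with the fibroblast sum was 0.58 in the 31 GFP+EpCAM+ cells and 0.55 in the 76 GFP+ cells. With the epithelial sum rho was -0.53 and -0.49 in the same groups. The signs were the same in peritoneum (0.29 and -0.41), kidney (0.38 and -0.27), liver (0.79 and -0.21) and spleen (0.24 and -0.18). In EpCAM+ cells rho was 0.63 with the fibroblast sum and 0.03 with the epithelial sum, and in CD45+ cells -0.13 and 0.03. With the summed leukocyte markers rho was 0.61 in EpCAM+, 0.31 in GFP+EpCAM+ and 0.25 in GFP+ cells of the primary tumour, 0.31 in peritoneum and 0.34 in kidney, and -0.05 in liver and -0.31 in spleen. A split of cells at 10 CPM of Epcam within mouse and group gave no steady direction, since the cells with Epcam had the lower Ifitm3 median in 6 of 11 sets of GFP+ sorted cells. The part of these cell states in the difference was not tested.

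Among the metastatic sites Ifitm3 was widespread. It reached 100 CPM in 73 of 85 peritoneal, 39 of 44 kidney, 14 of 16 liver and 35 of 35 spleen cells, against 62 of 76 GFP+ cells of the primary tumour. These totals mix mice, since kidney, liver and spleen lacked mouse 1, where 19 of 31 GFP+ primary cells reached it. In mice 2 and 3 Ifitm3 reached 100 CPM in 17 of 18 and 26 of 27 GFP+ primary cells. There it did so in 19 of 23 and 20 of 21 kidney cells and in 6 of 8 and 8 of 8 liver cells. Mouse means were 4427, 9719 and 5659 CPM in peritoneum, against 3246, 3056 and 3212 CPM in GFP+ primary cells of mice 1, 2 and 3. Peritoneum was above the primary tumour in each of the 3 mice without overlap, yet the spread between peritoneal samples was wide and the log2 difference of sums, 0.62 (SE 0.80), did not pass (edgeR, adjusted p = 1.0). Liver cells averaged 1072 and 1635 CPM in mice 2 and 3, below GFP+ primary cells. Their log2 difference of sums was -3.24 (SE 1.02, edgeR adjusted p = 0.214), and with the mouse as a block it passed, at -3.47 (adjusted p = 0.00309, 0.541% of genes passing). A single liver cell of mouse 2 with 12.9 CPM of Ifitm3 held 75.3% of that mouse's counts: the liver sum of mouse 2 was 164 CPM with it and 625 CPM without it. On the mean logs of cells the liver difference was -0.40 (limma, adjusted p = 0.947). That fit changes weighting and scale together. Its GFP+ primary group also includes mouse 1, whose median cell had 263 CPM.

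CD45+ cells spanned the full range. Their medians were 77.2, 1248 and 73.5 CPM in mice 1, 2 and 3, and the highest cell of all, with 132369 CPM, was a CD45+ cell of mouse 2 that had 15078 CPM of 12 pan-leukocyte markers and 46581 CPM of 12 macrophage and monocyte markers. That cell alone gave 73.5% of the mean of its group in mouse 2. Against GFP+EpCAM+ cells, CD45+ cells were higher in all 3 mice in the summed counts (3287 ± 2189 CPM against 1147 ± 305 CPM, SD, n = 3 mice each). The log2 difference of 1.26 (SE 0.78) did not pass in edgeR (adjusted p = 0.31). The one of 3.33 (SE 0.97) on the mean logs of cells passed (limma, adjusted p = 0.028, 4.14% of genes passing). It did not pass when any 1 mouse was left out, with adjusted p from 0.0691 to 0.206. Against GFP+ cells the direction depended on the measure. The log2 difference was 0.07 in sums (SE 0.77, edgeR, adjusted p = 0.969) and -2.16 on the mean logs of cells (limma, adjusted p = 0.234). Mouse means in CPM, which also weight cells alike, were 1533, 9001 and 970 CPM in CD45+ cells. In GFP+ cells they were 3246, 3056 and 3212 CPM. Counting could split reads within the Ifitm family: 67% of the Ifitm3 values above 0 were not whole numbers (beyond a tolerance of 0.01), and Ifitm3 and Ifitm1 had a Pearson r of 0.59 over the 368 cells on the log2(CPM + 1) scale.

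Most of the other 8 genes were high in a few cells and near 0 in most. The 5 highest cells gave 30.7% of the level of Ifit3 summed over cells, 35.1% of Irf1, 51.1% of Oasl2, 52.9% of Irf7, 53.3% of Gbp2, 56.3% of Isg15 and 69% of Ifit1. For Bst2 that share was below the 20.6% of Ifitm3. For Isg15, Ifit3 and Irf7 the median cell was at 0. For 6 of these 8 genes all 7 neighbouring groups in the order of means overlapped between mice. The exceptions were 1 pair each of Oasl2 (peritoneum over spleen) and Irf1 (kidney over liver), and in the summed counts both of these pairs overlapped too. How often neighbouring groups overlap was not computed over all genes, so the count only describes the set.

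**Figure D2:**
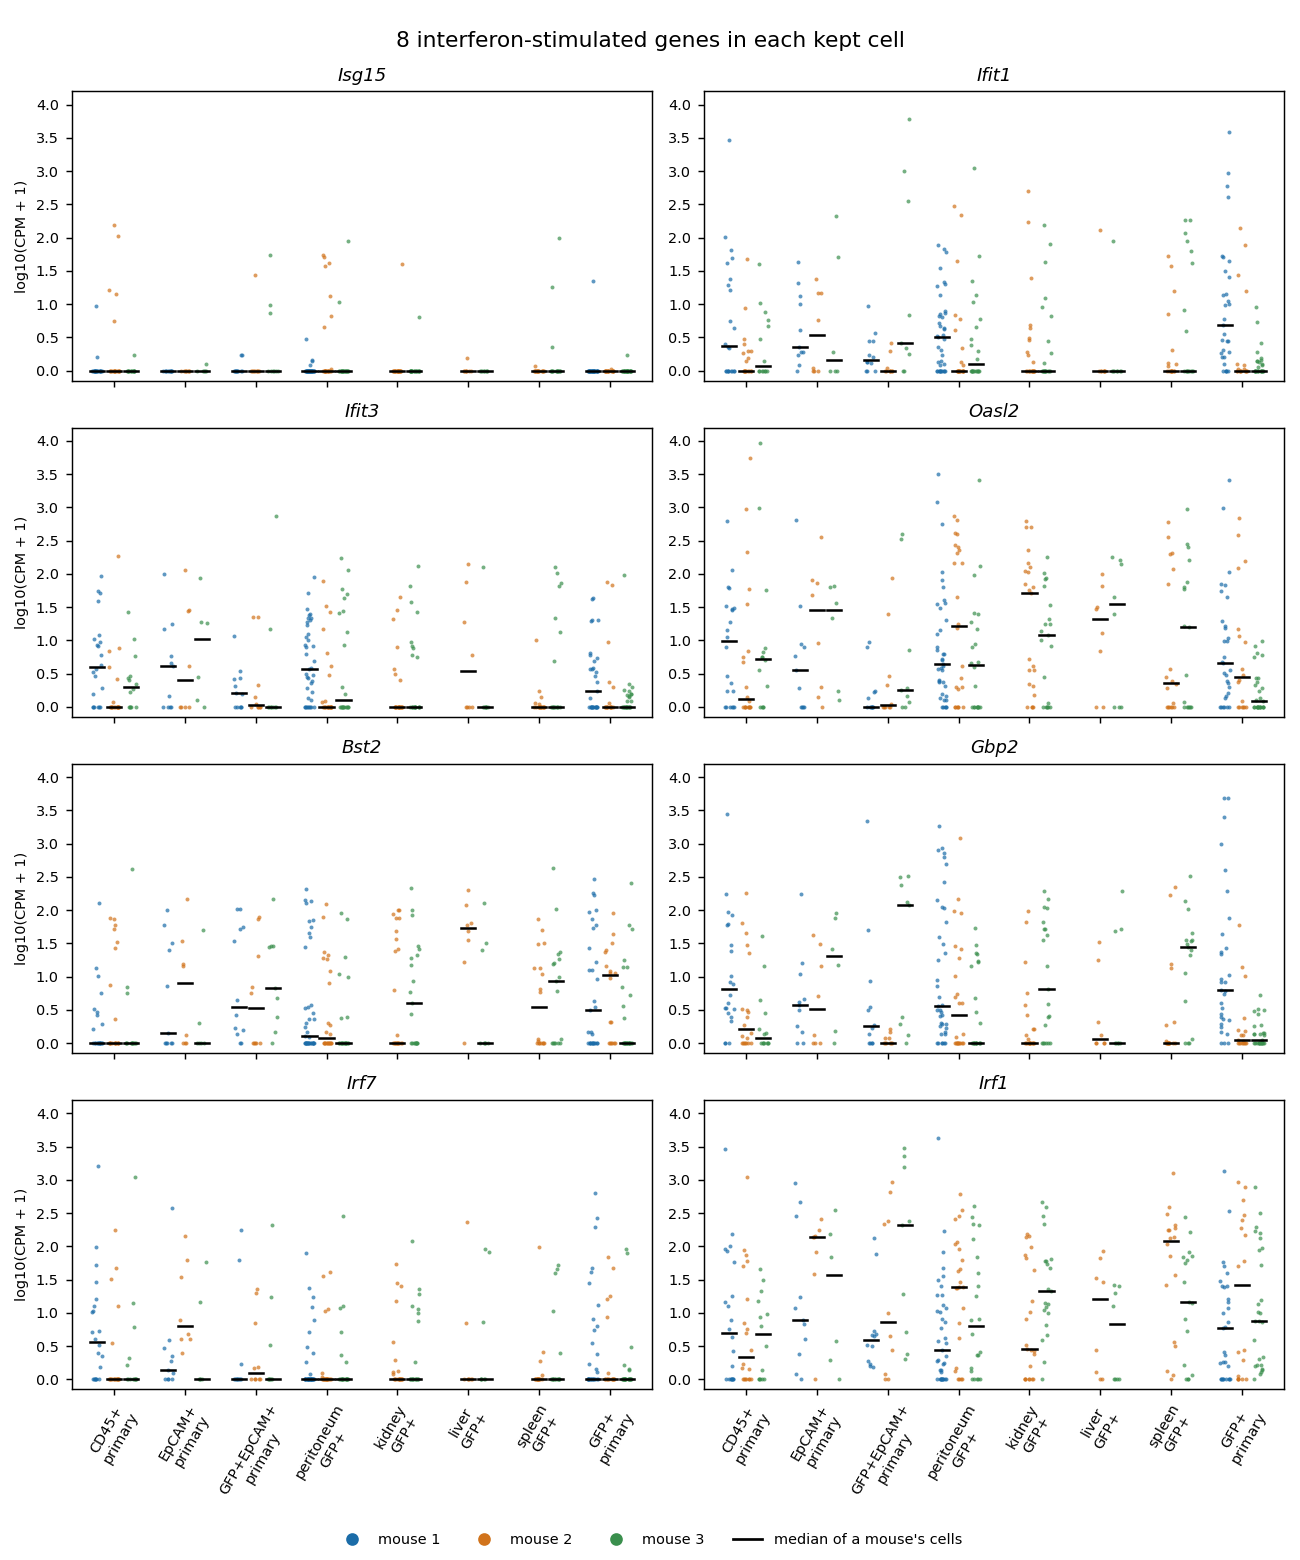
Isg15, Ifit1, Ifit3, Oasl2, Bst2, Gbp2, Irf7 and Irf1 in each of the 368 kept cells, as log10(CPM + 1), by group and mouse. Points are cells and bars the median of a mouse's cells; most bars lie near 0, with single cells up to 9339 CPM (Oasl2, a CD45+ cell of mouse 3).

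Isg15, the ubiquitin-like modifier, was read in 39 of 368 cells, reached 10 CPM in 16 and reached 100 CPM in 2. Both of those were CD45+ cells of mouse 2, at 156 and 104 CPM, and carried 6562 and 13947 CPM of pan-leukocyte markers. Mouse means of CD45+ cells were 0.415, 14.7 and 0.0532 CPM, against 0.677, 0.00311 and 0.0264 CPM in GFP+ primary cells, so the groups overlapped. Outside the primary tumour the highest cells were at 97.1 CPM in spleen (mouse 3, with 2976 CPM of olfactory receptor reads) and 86.6 CPM in peritoneum (mouse 3). None of 76 GFP+ primary cells reached 100 CPM, which allows a share of up to 3.95% from counting error alone.

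Ifit1, which binds viral RNA, reached 100 CPM in 21 cells spread over all 8 groups. Its highest cells had 6188 CPM (GFP+EpCAM+, mouse 3), 3869 CPM (GFP+ primary, mouse 1) and 2996 CPM (CD45+, mouse 1, with 26815 CPM of T and NK cell markers). Mouse means were 1.39, 0.263 and 840 CPM in GFP+EpCAM+ cells, against 197, 14.3 and 0.656 CPM in GFP+ primary cells. The mouse that was high differed between the groups, mouse 3 in the first and mouse 1 in the second. Its log2 difference of sums was 3.19 (SE 2.11, edgeR adjusted p = 0.757), and without mouse 3 it was -6.39 (adjusted p = 0.569).

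Ifit3, of the same family as Ifit1, reached 100 CPM in 10 cells, the highest at 736 CPM in a GFP+EpCAM+ cell of mouse 3. Its mouse means were 1.54, 4.50 and 83.3 CPM in GFP+EpCAM+ cells, against 5.60, 8.43 and 3.81 CPM in GFP+ primary cells. Mouse 3 alone was higher in GFP+EpCAM+ cells, and the log2 difference of sums, 4.37 (SE 1.94), did not pass (edgeR adjusted p = 0.408). It was -0.97 without mouse 3 (adjusted p = 0.992). Of the 9 genes Ifit3 followed the background reads most closely, with a Spearman's rho of 0.51 with the olfactory receptor sum over 368 cells, and it reached 10 CPM in 5 of the 205 cells under 500 CPM of such reads against 70 of all 368. Counting could also split its reads, since 30.7% of its values above 0 were not whole; Ifit3b is a close relative.

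Oasl2, of the oligoadenylate synthetase family, reached 10 CPM in 131 cells and 100 CPM in 57. Mouse means in CD45+ cells were 47.3, 336 and 744 CPM, against 130, 77.7 and 1.47 CPM in GFP+ primary cells. The CD45+ means of mice 2 and 3 rest on single cells: 9339 CPM in a cell of mouse 3 with 70231 CPM of 8 neutrophil markers and 1105 CPM of Irf7, and 5456 CPM in a cell of mouse 2 with 25041 CPM of the neutrophil markers and 104 CPM of Isg15. Summed counts gave a log2 difference of 3.77 (SE 1.83) for CD45+ against GFP+ primary cells, with unadjusted p = 0.0481 and adjusted p = 0.284 in edgeR. Against GFP+EpCAM+ cells, whose mouse means were 1.44, 11.3 and 82.2 CPM, it was 4.13 (SE 1.86, edgeR adjusted p = 0.182), higher in 3 of 3 mice; DESeq2 passed it at 4.59 (adjusted p = 0.0395, 17.7% of genes passing). At sites Oasl2 reached 100 CPM in 16 of 85 peritoneal, 10 of 44 kidney, 4 of 16 liver and 9 of 35 spleen cells, against 7 of 76 GFP+ primary cells. Among cells with under 500 CPM of olfactory receptor reads it did so in 7 of 42 peritoneal, 2 of 19 kidney, 0 of 7 liver (which allows up to 42.9%) and 6 of 22 spleen cells, against 5 of 54 GFP+ primary cells. These totals mix mice, since kidney, liver and spleen lacked mouse 1. Of all GFP+ primary cells, 3 of 31, 4 of 18 and 0 of 27 reached 100 CPM in mice 1, 2 and 3. Mouse means of peritoneum were 141, 147 and 131 CPM, but 1 cell gave 58.6% of the mean in mouse 1 and 88.4% in mouse 3, and without the highest cell of each mouse they were 59.8, 121 and 15.8 CPM. The log2 difference of peritoneum from the primary tumour, 1.60 (SE 1.27), did not pass (edgeR adjusted p = 1.0).

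Bst2, or tetherin, was spread over many cells. It reached 10 CPM in 117 cells, and its group means ran from 15.2 ± 7.66 CPM in peritoneum (SD, n = 3 mice) to 45 ± 31.2 CPM in liver (SD, n = 2 mice), with 21.9 ± 11.8 CPM in GFP+ primary cells (SD, n = 3 mice). Liver was the highest group through mouse 2, with means of 67.1 and 23 CPM in mice 2 and 3. Its highest cell had 431 CPM (spleen, mouse 3), and a CD45+ cell of mouse 3 with 79987 CPM of macrophage and monocyte markers had 419 CPM. The largest of its 8 log2 differences was 1.33 (SE 1.56), for GFP+EpCAM+ against GFP+ primary cells (edgeR adjusted p = 0.955).

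Gbp2, the interferon-gamma responsive GTPase, was high in mouse 1 or mouse 3 depending on the sort. In GFP+ primary cells mouse means were 456, 4.68 and 0.615 CPM, and 6 of 31 cells of mouse 1, none of 18 of mouse 2 and none of 27 of mouse 3 reached 100 CPM. Its 2 highest cells, at 4936 and 4846 CPM, were GFP+ primary cells of mouse 1 with 5302 and 5779 CPM of epithelial markers. In GFP+EpCAM+ cells the means were 189, 0.151 and 125 CPM. The mouse 1 mean came almost whole from 1 cell (97.2%), whereas in mouse 3 5 of 9 cells reached 100 CPM and the median cell had 118 CPM. Peritoneal means were 158, 67.7 and 7.98 CPM, mouse 1 again the highest. No comparison of sums passed for Gbp2: the log2 difference was 0.37 (SE 1.91) for GFP+EpCAM+ against GFP+ primary cells (edgeR adjusted p = 0.997) and 0.12 (SE 1.43) for peritoneum against primary (adjusted p = 1.0).

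Irf7, the regulator of type I interferon genes, was read in 133 of 368 cells and reached 100 CPM in 13. Mouse means were 83.2, 13.4 and 80.3 CPM in CD45+ cells, against 40.1, 8.54 and 6.35 CPM in GFP+ primary cells, higher in CD45+ cells of all 3 mice though the ranges overlapped. Single cells again carried the CD45+ means. The highest had 1593 CPM (mouse 1) and held 13276 CPM of T and NK cell markers and 5095 CPM of B cell markers, and the next had 1105 CPM (mouse 3) and was the neutrophil-marker cell that was highest for Oasl2. The log2 difference of sums was 3.59 (SE 1.90) and did not pass in edgeR (adjusted p = 0.332). DESeq2 passed it at 4.25 (SE 1.49, adjusted p = 0.0432, 9.65% of genes passing). Among GFP+ cells Irf7 reached 100 CPM in 1 of 85 peritoneal, 1 of 44 kidney, 1 of 16 liver and 0 of 35 spleen cells, the last allowing a share of up to 8.57%, against 3 of 76 primary cells. Those 3 primary cells were of mouse 1, which gave no kidney, liver or spleen cells.

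Irf1, the early target of interferon-gamma, was read in 290 cells and reached 100 CPM in 71. Among the primary sorts its mouse means were 158, 70.9 and 9.56 CPM in CD45+ cells, 152, 121 and 95.4 CPM in EpCAM+ cells and 19.1, 203 and 819 CPM in GFP+EpCAM+ cells, against 64.4, 178 and 75.4 CPM in GFP+ cells. The highest group, GFP+EpCAM+, was high in mouse 3 (5 of 9 cells at 100 CPM, median 208 CPM) and mouse 2 (4 of 10 cells), and low in mouse 1 (1 of 12 cells). In EpCAM+ cells 3 of 11, 5 of 8 and 2 of 6 reached 100 CPM, against 2 of 31, 7 of 18 and 6 of 27 GFP+ cells. In CD45+ cells 4 of 56 reached 100 CPM, and 1 cell gave 84.4% of the mean of mouse 1, which was 25.9 CPM without it. Across these sorts the 2 lowest mouse medians of the primary sorts were in CD45+ cells (1.20 CPM) and GFP+EpCAM+ cells (2.89 CPM). Sums of CD45+ cells were 35.7 ± 28.2 CPM, against 395 ± 445 CPM in GFP+EpCAM+ cells (SD, n = 3 mice each), a log2 difference of -3.65 (SE 1.44) with unadjusted p = 0.0169 and adjusted p = 0.14 in edgeR. DESeq2 passed it at -3.36 (adjusted p = 0.0311).

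Irf1 also differed in the order of sites. Mouse means were 122, 87.1 and 64 CPM in peritoneum, 32.8 and 82.3 CPM in kidney, 26.5 and 9.93 CPM in liver and 179 and 49.3 CPM in spleen, against 64.4, 178 and 75.4 CPM in GFP+ primary cells of mice 1, 2 and 3. A single cell of 4272 CPM gave 89.6% of the peritoneal mean of mouse 1, which was 13.1 CPM without it. Liver was the lowest, with 0 of 16 cells at 100 CPM, which allows up to 18.8%. Its log2 difference of sums was -3.97 (SE 1.69, unadjusted p = 0.0213, edgeR adjusted p = 0.29). The spleen was high in mouse 2, where 10 of 18 cells reached 100 CPM, against 2 of 17 in mouse 3. Background reads did not follow Irf1, with a rho of 0.03.

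Over the 9 genes, none passed in any of the 8 comparisons of mouse sums by edgeR's quasi-likelihood test at an adjusted p of 0.05. Of all genes tested, 0.817% passed for CD45+ against GFP+ primary cells, 1.69% for CD45+ against GFP+EpCAM+ cells, and 0.0% for EpCAM+ and for GFP+EpCAM+ against GFP+ primary cells (19703 genes). For GFP+ cells of sites against the primary tumour (21988 genes) 0.0091% passed in peritoneum and 0.0136% in liver, and 0.0% in kidney and spleen. A count of 0 of 9 is thus near the background of each comparison. At an unadjusted p under 0.05 the 9 genes gave 1 for CD45+ against GFP+ cells (Oasl2), 3 for CD45+ against GFP+EpCAM+ cells (Ifit3, Oasl2 and Irf1), 0 for EpCAM+, 1 for GFP+EpCAM+ (Ifit3), 2 for liver (Ifitm3 and Irf1) and 0 for peritoneum, kidney and spleen, while 17.3%, 23.6%, 11.5%, 10.2%, 14.2%, 6.10%, 6.01% and 6.16% of all genes did so in these comparisons in the same order. Other tools passed more. By DESeq2 1 of the 9 (Irf7) passed for CD45+ against GFP+ cells, where 9.65% of all genes did, 2 (Oasl2 and Irf1) for CD45+ against GFP+EpCAM+ cells (17.7%), and none for EpCAM+ (4.23%), GFP+EpCAM+ (4.29%), peritoneum (0.764%), kidney (0.991%), liver (5.25%) or spleen (0.91%). DESeq2 gave no p for Ifit1 and Ifit3 in CD45+ against GFP+ cells, and genes without a p count here as not passing. By limma Ifitm3 alone passed for CD45+ against GFP+EpCAM+ cells (4.14% of all genes) and for GFP+EpCAM+ against GFP+ cells (0.299%), and none of the 9 for CD45+ against GFP+ cells (3.95%), EpCAM+ (0.0102%), peritoneum (0.0%), kidney (0.0%), liver (0.00455%) or spleen (0.0%). The biological coefficient of variation between mice was 1.16 in the fit of primary sorts and 1.08 in the fit of sites.

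**Figure D3:**
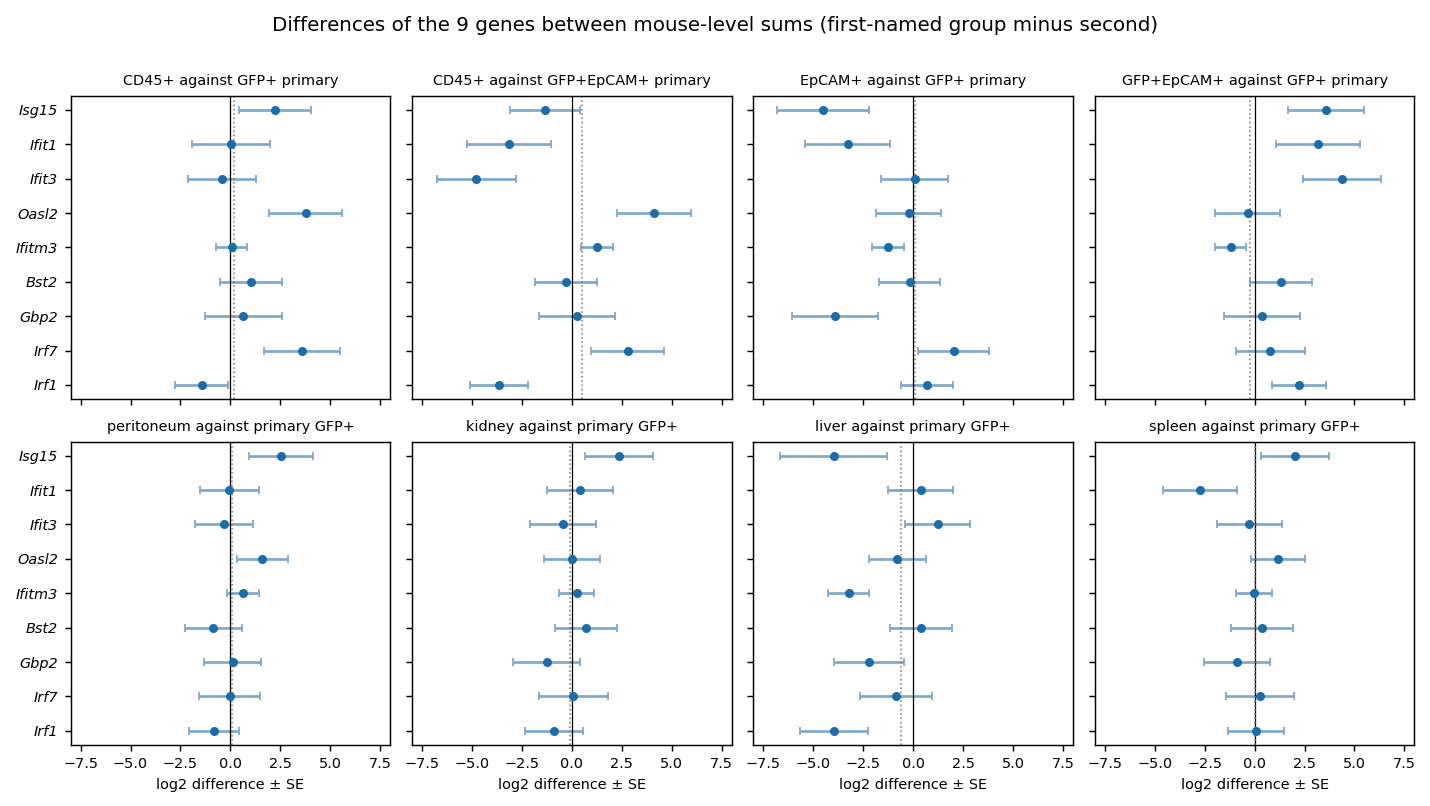
Log2 differences of the 9 genes between counts summed per mouse, first-named group minus second, with standard errors from edgeR, in 8 comparisons. The dotted line is the median of all genes tested. The widest difference for CD45+ against GFP+ primary cells is that of Oasl2, 3.77 (SE 1.83); none of the points passed the adjusted threshold.

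The median log2 difference of the 9 genes was 0.64 for CD45+ against GFP+ primary cells, where that of all genes was 0.20. It was -0.28 (all genes 0.52) for CD45+ against GFP+EpCAM+ cells, -0.23 (0.07) for EpCAM+ and 1.33 (-0.23) for GFP+EpCAM+ against GFP+ primary cells. For sites it was -0.04 (0.08) in peritoneum, 0.08 (-0.10) in kidney cells, -0.87 (-0.61) in liver cells and 0.06 (0.01) in spleen cells. The 4 comparisons with sites share the primary GFP+ sums, as do 3 of the 4 comparisons of primary sorts.

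The wider pathway was read through 4 lists: 39 type I effectors, 18 interferon-gamma targets, 24 receptors and signalling genes and 11 ligands, of which 10 were measured. No gene of any list passed in any of the 8 comparisons (edgeR), against the same percentages of all genes. For CD45+ against GFP+ primary cells the medians were 1.08 for effectors, 0.92 for gamma targets and 1.71 for receptors and signalling, beside 0.20 for all genes. Above 0 were 29 of 39, 13 of 18 and 15 of 24 genes, a share that was not computed over all genes. For CD45+ against GFP+EpCAM+ cells the medians were 0.08, 0.51 and 1.19, beside 0.52, with 20 of 39, 10 of 18 and 14 of 24 above 0. For GFP+EpCAM+ against GFP+ primary cells they were 1.06, -0.10 and 0.07, beside -0.23. In liver they were -0.26, -0.69 and -1.37, beside -0.61.

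Among receptors, Ifngr1, the ligand-binding chain for interferon-gamma, averaged 1011 ± 361 CPM in CD45+ cells, 810 ± 703 CPM in EpCAM+ cells and 746 ± 291 CPM in GFP+EpCAM+ cells, against 195 ± 153 CPM in GFP+ primary cells (SD, n = 3 mice each). The GFP+EpCAM+ difference, 2.56 (SE 1.03), had unadjusted p = 0.0191 and did not pass (edgeR adjusted p = 0.338). Its signalling partner chain Ifngr2 was at 140 ± 61.1 CPM in GFP+EpCAM+ cells and 148 ± 66.8 CPM among GFP+ cells of 3 mice each (SD).

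Of the effectors, Ly6e, a membrane protein of the lymphocyte antigen family, was at 797 ± 355 CPM in GFP+EpCAM+ cells and 617 ± 314 CPM in GFP+ primary cells (SD, n = 3 mice each). Ifitm1, a relative of Ifitm3, was at 782 ± 739 CPM in CD45+ cells and 87 ± 68.2 CPM in GFP+EpCAM+ cells, against 420 ± 132 CPM in GFP+ primary cells (SD, n = 3 mice each). It was thus lower in GFP+EpCAM+ than in GFP+ cells without overlap, as Ifitm3 was, though the log2 difference of -1.0 (SE 1.25) did not pass (edgeR adjusted p = 0.97). Among gamma targets the immunity-related GTPase Irgm1 averaged 218 ± 277 CPM in GFP+EpCAM+ cells, against 128 ± 170 CPM in GFP+ primary cells (SD, n = 3 mice each), a spread wider than the difference. Rtp4, Usp18 and Mx1, named below with single cells, were chosen after their values were seen.

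Interferon transcripts themselves were nearly unread. Of the 10 ligand genes measured, Ifnb1 reached 10 CPM in 5 of 368 cells, Ifng in 4, Ifna5 in none, and Ifne, the epithelial type I interferon and the most often read, in 8. Each of these shares lay below the median of 3.80% of cells for a single olfactory receptor gene, so they are within the background. Only Ifne exceeded 100 CPM, in 2 of 368 cells, the highest at 436 CPM. Olfactory receptor genes reached 100 CPM in 0.267% of gene and cell pairs. At 10 CPM, source cells of interferon could thus not be told from background reads, and the part of depth was not tested.

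Cells with several genes of the set above 10 CPM mostly had more background reads and fewer counts. Of 8 genes (all but Ifitm3), 4 or more reached 10 CPM in 79 of 368 cells, and in 15 of the 205 cells with under 500 CPM of olfactory receptor reads. The median olfactory receptor sum was 161 CPM in the 77 cells with none of the 8, 149 CPM with 1, 214 CPM with 2, 1517 CPM with 3, 3711 CPM with 4, 5253 CPM with 5 and 3470 CPM with 6. Median depth was 2015003, 2054714, 810173, 223037, 310501, 319889 and 166862 counts in the same order. In shallow cells a single read can reach 10 CPM. Spearman's rho between the number of genes and that sum was 0.45 at a threshold of 10 CPM and -0.01 at 100 CPM, over 368 cells that differ in depth. The count of genes above 10 CPM therefore moved with the background reads, and the count above 100 CPM did not. The parts of background reads and of depth in these counts and in single values were not tested.

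**Figure D4:**
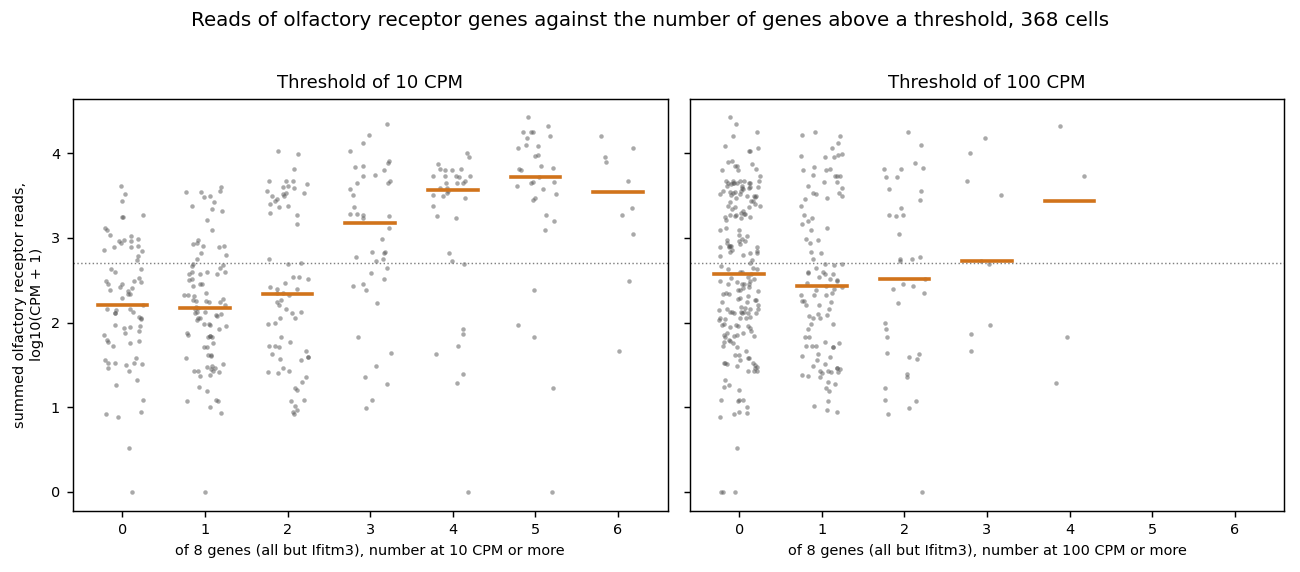
Summed level of 1107 olfactory receptor genes per cell, as log10(CPM + 1), against the number of 8 genes (all but Ifitm3) at 10 CPM or more (left) and 100 CPM or more (right), in 368 cells. Bars are medians and the dotted line marks 500 CPM; on the left the median is 161 CPM with no gene and 5253 CPM with 5.

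At 100 CPM, 3 or more of the 8 genes were found together in 13 cells, 6 of them under 500 CPM of olfactory receptor reads. Of these 6, 3 were GFP+EpCAM+ cells of mouse 3. The first had 6188 CPM of Ifit1, 1583 CPM of Irf1, 322 CPM of Gbp2 and 208 CPM of Irf7, with 833 CPM of the type I effector Rtp4 and 18596 CPM of epithelial markers, but 0.478 CPM of Oasl2. The next had 1006 CPM of Ifit1, 736 CPM of Ifit3 and 339 CPM of Oasl2, with 53 CPM of Isg15, 261 CPM of Usp18, which removes Isg15 from proteins, and 360 CPM of Rtp4. It carried both 4943 CPM of epithelial and 7009 CPM of fibroblast markers in 5832786 counts, and whether it is 1 cell was not tested. The last of the 3 had 354 CPM of Ifit1, 393 CPM of Oasl2, 239 CPM of Gbp2 and 208 CPM of Irf1.

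A GFP+ peritoneal cell of mouse 3 combined several type I effectors. It had 1129 CPM of Ifit1, 2544 CPM of Oasl2, 288 CPM of Irf7, 86.6 CPM of Isg15 and 88.9 CPM of Bst2. Beside them stood 516 CPM of Mx1, a GTPase against viruses, and 184 CPM of Usp18. Gbp2 was at 0.0 and Irf1 at 1.53 CPM in that cell, which held 13785 CPM of fibroblast markers and 5.36 CPM of pan-leukocyte markers. The other 2 cells under 500 CPM were a GFP+ primary cell of mouse 1 (601 CPM of Ifit1, 107 CPM of Oasl2 and 197 CPM of Irf7) and an EpCAM+ cell of mouse 2 (144 CPM each of Bst2, Irf7 and Irf1, in 13906 counts). The 6 cells thus came from 4 groups. They were picked for their values and are a description.

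**Figure D5:**
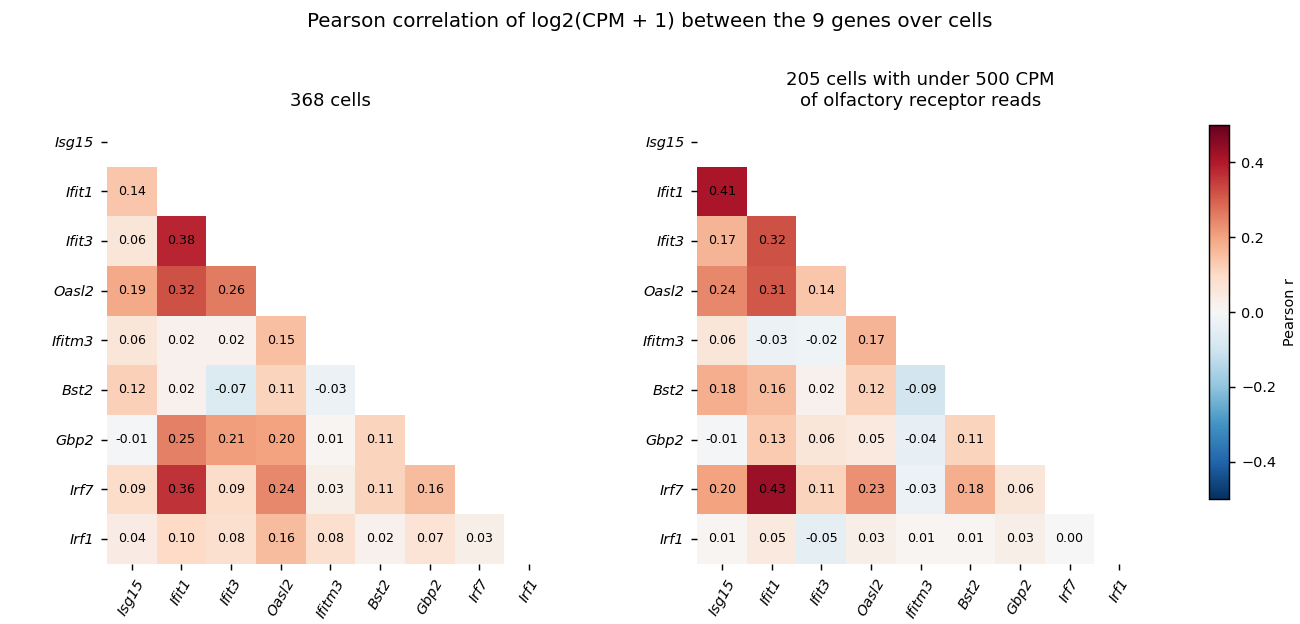
Pearson correlation of log2(CPM + 1) between each pair of the 9 genes, over all 368 cells (left) and over the 205 cells with under 500 CPM of olfactory receptor reads (right). The cells share mice, depth and background reads. Ifit1 with Irf7 is at 0.36 and 0.43, and the pairs with Ifitm3 stay between -0.09 and 0.17 on the right.

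Pairs of genes were weakly correlated over cells. The highest of the 36 pairs over 368 cells was Ifit1 with Ifit3, at a Pearson r of 0.38, followed by Ifit1 with Irf7 (0.36) and Ifit1 with Oasl2 (0.32). Over the 205 cells with little background the same pairs had 0.32, 0.43 and 0.31, and Isg15 with Ifit1 had 0.41 against 0.14 over all cells. By contrast Ifit1 with Gbp2 had 0.13 over the 205 cells and 0.25 over all. Irf1 was near 0 with each of the others over the 205 cells, from -0.05 to 0.05. Such values in sparse counts describe the data and carry no test.

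Likeness of patterns was measured over the 21 sums of a mouse and group, as the Pearson r of log2(CPM + 1) with each of 8909 other genes at a mean of at least 10 CPM (8910 for Isg15). The most alike were Kdm6a (0.80), Gm4951 (0.78) and Usp18 (0.78) for Ifit1, Card6 (0.79) for Ifit3 and Tubb5 (0.79) for Ifitm3. Gbp2 was most like Neurl4 (0.77) and Gbp7 (0.75), a gene of its own family, Irf7 like Map7d1 (0.76), Oasl2 like Ythdc1 (0.74), and Isg15, Bst2 and Irf1 like Enthd2, Eif4g2 and Gm14137 (0.72 each). Sums of 1 mouse share their animal, and the highest of 8909 values is high by selection.

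The DNA of the same cells gives the dosage of the chromosomes on which the genes lie, as the share of a cell's DNA reads on a chromosome relative to CD45+ cells, in cells with at least 50000 DNA reads. Chromosome 7, with Ifitm3 and Irf7, was at 0.772 ± 0.0468 in GFP+EpCAM+ cells and 0.763 ± 0.0153 in GFP+ primary cells (SD, n = 3 mice each). Chromosome 4, with Isg15, was at 0.774 ± 0.0113 in GFP+EpCAM+ cells and 0.791 ± 0.0221 in GFP+ cells. Chromosome 3, with Gbp2, was at 1.44 ± 0.0870 in GFP+EpCAM+ cells and 1.32 ± 0.122 in GFP+ cells, and chromosome 5, with Oasl2, at 1.12 ± 0.0371 and 1.25 ± 0.0367 in the same order (SD, n = 3 mice each). The part of chromosome dosage in the RNA levels was not tested.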

How the data were processed

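Each cell gave an RNA and a DNA library. The authors deposited 1 table of estimated counts (expected counts) per gene, not normalized, of which 97.36% of values were whole, and a table of DNA read counts in 5000 genome bins. The submitters' processing notes name STAR, kallisto, Bowtie 1.0 and mm9, with no role given. Spike-ins (92) and repeated symbols (4) were not used. Cells with at least 500 genes and 10000 counts were kept, and levels are CPM of a cell's RNA counts. Expected counts were summed per mouse and group, and the sums were rounded. They were tested with edgeR 4.0.16 (R 4.3.3, quasi-likelihood, TMM scaling, Benjamini-Hochberg adjustment over all genes tested, threshold 0.05) in 1 fit of the 4 primary sorts and 1 of the GFP+ sites, 12 sums each. Alternatives used DESeq2 1.42.0, limma 3.58.1 on mouse means of log2(CPM + 1) or log2(CPM + 0.1), other cell and gene filters, thinning to 50000 counts, the mouse as a block, and each mouse left out. Cells under 500 CPM of olfactory receptor reads, and limma with the block or without a mouse, were alternatives added after the data were seen. The scripts used Python 3.11.15, numpy 2.4.6, pandas 2.3.3, scipy 1.17.1 and matplotlib 3.10.9. Only the edgeR fit was tested on simulated data, for CD45+ against GFP+ primary cells.

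The labels tie groups to the same 3 animals, so sums of 1 mouse are paired. Their deviations from group means had a median correlation of 0.07 (0.0114 to 0.193, 18 pairs) among primary sorts and 0.0687 (-0.12 to 0.362, 21 pairs) among sites. Where 0 cells were found, the limit given is 3 cells of the total; limits cover counting error only. Of the wider lists, the 3 genes with the highest mean level were eligible to be named where none passed, and Rtp4, Usp18 and Mx1 were chosen after their values were seen. The 9 genes and the lists were chosen with earlier results of these data known. Doublets were not called, since wells were sorted singly. Promoter windows are RefSeq's for GRCm38.p6, and no coordinates of mm9 were used.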

Additional observations from a re-analysis of the deposited data

Results flagged for a closer look

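The 6 bulk libraries, which enter no comparison, also held reads of these genes. In bulk, fewer cells of a type and less RNA per cell cannot be told apart. More than 3 counts were found for 5 of the 9 genes in the CD45+ primary library of mouse 1, 9 in the GFP+ primary library of mouse 1, 8 in the GFP- peritoneum library of mouse 1, 9 in the GFP+ peritoneum library of mouse 1, 2 in the GFP- primary library of mouse 1 and 8 in the GFP+ primary library of mouse 2. Their depths ran from 8520 counts (GFP- primary, mouse 1) to 19160676 counts (GFP+ primary, mouse 2). Ifitm3 was at 15785 CPM in the GFP- and 8370 CPM in the GFP+ peritoneum library. It was at 33 CPM in the CD45+ primary library, in which olfactory receptor reads summed to 25452 CPM, and at 1969 and 6809 CPM in the GFP+ primary libraries of mice 1 and 2. The library of mouse 1 is titled GFP while its marker label names EpCAM, so its sort is uncertain. Each library is a single sample, so these are values with no test.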

How the results depend on the processing

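No gene of the 9 passed under 125 of 136 alternatives to the 8 counts. DESeq2 passed 1 gene for CD45+ against GFP+ primary cells and 2 for CD45+ against GFP+EpCAM+ cells. Limma passed 1 in that second comparison and 1 for GFP+EpCAM+ against GFP+ cells (at either pseudocount and with the replicate block; without 1 replicate, 0 to 1). The replicate block in edgeR passed 1 in liver (Ifitm3) and changed no other call. Over all genes DESeq2 passed 1901, 3487, 834, 845, 168, 218, 1155 and 200, against 161, 333, 0, 0, 2, 0, 3 and 0 in edgeR (order: CD45+ against GFP+, CD45+ against GFP+EpCAM+, EpCAM+, GFP+EpCAM+, peritoneum, kidney, liver, spleen). For CD45+ against GFP+ cells the median over all genes, 0.20 in edgeR, was 0.94 by DESeq2 and 0.37 on library totals.

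Of 1221 alternative log2 differences 247 had the opposite sign at any p, and 33 did so with an unadjusted p under 0.05 in either fit, none passing after adjustment; the cause was not tested. Each range below is over the fits without 1 replicate. CD45+ against GFP+: Ifitm3 was -2.16 by limma, -2.23 at the smaller pseudocount, -2.16 with the replicate block and -2.81 to -2.64 without replicate 2 or 1 (range -2.81 to 0.49). Oasl2 was -0.06 by limma without replicate 3 (range -0.06 to 5.74), and Gbp2 -5.81 in cells with few olfactory receptor reads. CD45+ against GFP+EpCAM+: Ifit1 was 6.29 without replicate 3 (range -6.86 to 6.29), and Ifit3 was 0.33 by limma, 0.79 at the smaller pseudocount, 0.33 with the block, 0.61 by limma without replicate 2 or 3, and 0.97 by edgeR without replicate 3 (range -5.71 to 0.97). EpCAM+: Oasl2 was 2.07 and Gbp2 2.18 by limma without replicate 1 (ranges -0.78 to 2.07 and -4.88 to 2.65). GFP+EpCAM+: without replicate 3, Ifit1 was -6.39 and Ifit3 -0.97 by edgeR and -0.25 by limma (ranges -6.39 to 8.94 and -0.97 to 4.98). Peritoneum: Ifit1 was 5.51 without replicate 1 (range -2.91 to 5.51) and 4.82 in cells with few olfactory receptor reads. Kidney: Gbp2 was -5.60 to 5.13 without 1 replicate. Liver: Ifit3 was -9.18 in cells with few olfactory receptor reads, Oasl2 1.78 by limma with the block and 2.04 to 2.14 without replicate 1 or 2 (range -2.06 to 2.14), Ifitm3 1.02 by limma without replicate 2 (range -4.45 to 1.02), and Gbp2 -5.30 to 4.12 without 1 replicate. Spleen: Isg15 was -5.22 to 6.69 without 1 replicate, and Gbp2 was 1.70 by limma with the block, 1.97 by limma without replicate 1, 4.46 by edgeR with the block and -2.14 to 5.46 without 1 replicate.

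Thinning to 50000 counts a cell moved the share of cells with a read by more than 1 SD between mice in 62 of 72 sets (9 genes in 8 groups). Keeping only cells with under 500 CPM of olfactory receptor reads moved the share at 10 CPM in 27 of 72 and that at 100 CPM in 6.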
